A study of Mus musculus with 18 samples.

Results

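The genes described here are 10 transcription factors known for steering CD8+ T cells toward effector fates: Tbx21, Eomes, Prdm1, Id2, Zeb2, Irf4, Irf8, Batf, Bhlhe40 and Ikzf2. They were found by their gene symbols, and each matched 1 gene in each of the 3 deposited tables. They are 10 of 27830 genes listed in any table and of 20825 listed in all 3. RNA was sequenced from CD8+ T cells of mice 8 weeks old, either wild type (WT) or carrying the label Hspa9 cKO, for a conditional knockout of the gene that encodes the mitochondrial chaperone GRP75. Lymph nodes and spleen supplied the naive cells. Effector and memory cells were made in culture from naive cells, so these 2 subsets are products of culture conditions and not of an infection. The 18 libraries form 6 groups of 3: WT naive, cKO naive, WT effector, cKO effector, WT memory and cKO memory, all labelled as untreated. The labels give neither the Cre line that drives the deletion, nor the deleted exons, nor the strain, nor whether a group's replicates stem from different animals, so the p-values measure the spread between these samples, which may be technical.

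A CD8+ T cell that meets antigen turns on a layer of factors that fix how far it differentiates. The T-box factors T-bet (Tbx21) and EOMES drive cytotoxic and interferon genes, and ZEB2 and BLIMP-1 (Prdm1) act beside T-bet as repressors in terminal effector cells. ID2 frees that programme by holding E proteins off DNA, while BATF, IRF4 and IRF8 couple receptor signals to it, with BATF and IRF4 binding DNA together. BHLHE40 is a repressor induced by stimulation, and Helios (Ikzf2), an Ikaros family member, is best known from regulatory T cells.

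Proximal promoters are shown for 3 of the factors, because the letters found there are those that members of this set or the interferon and cytokine pathways are known to read. Sequences are RefSeq's for build GRCm38.p6, which is not the build of the deposited tables (GRCm39), and each gives the 250 bases before the start site, 5′ to 3′ on the gene's strand. Capitals mark the matched letters.
Irf8, chr8:120736108-120736357, plus strand: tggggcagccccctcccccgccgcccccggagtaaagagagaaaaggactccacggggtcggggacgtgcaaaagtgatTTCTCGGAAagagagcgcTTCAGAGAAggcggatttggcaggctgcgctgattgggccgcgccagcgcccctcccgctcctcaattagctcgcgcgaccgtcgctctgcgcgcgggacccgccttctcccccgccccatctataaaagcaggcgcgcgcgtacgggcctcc
Prdm1, chr10:44458749-44458998, minus strand: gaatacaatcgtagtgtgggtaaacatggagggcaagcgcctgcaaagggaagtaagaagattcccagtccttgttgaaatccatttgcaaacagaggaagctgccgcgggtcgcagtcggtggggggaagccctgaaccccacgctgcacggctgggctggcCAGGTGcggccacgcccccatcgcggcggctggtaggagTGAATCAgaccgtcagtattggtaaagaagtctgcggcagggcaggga
Eomes, chr9:118477939-118478188, plus strand: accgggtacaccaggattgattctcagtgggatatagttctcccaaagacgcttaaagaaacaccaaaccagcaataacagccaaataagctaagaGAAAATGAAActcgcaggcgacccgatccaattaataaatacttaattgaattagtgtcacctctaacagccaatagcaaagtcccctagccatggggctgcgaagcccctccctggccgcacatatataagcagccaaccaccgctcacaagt
In Irf8, TTCNNNGAA, the letters of interferon-gamma activated sites that STAT proteins read, begins at 171 and at 153 bases before the start, and 8.30% of all 32851 promoters of 300 bases hold it. The Prdm1 window holds the AP-1 letters TGANTCA, which BATF with a JUN partner reads, 48 bases before the start (7.81% of promoters hold them), and CAGGTG, which ZEB proteins read, 87 bases before it (20.2% of promoters). The Eomes window holds a pair of IRF half-sites, GAAA repeated after a gap of 2 bases, beginning 154 bases before the start (3.44% of promoters). Both strands were searched, the motifs do not overlap in these windows, and 8 of the 10 members, with 12 promoters, had an entry in the table. A match is a description of letters, not a bound site.

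The targeted gene and the markers of other cells set limits on the genotype comparisons. Hspa9 went against the label: its normalised reads (reads divided by the authors' size factor) were higher in the cKO-labelled than in the WT libraries, on the log2 scale by 0.69 in the naive subset, 0.16 in the effector subset and 0.48 in the memory subset, so the text speaks of cKO-labelled libraries, and every direction given for the genotype rests on that label. The effector call for Hspa9 was lost without WT replicate 1 or 3 or cKO replicate 2 or 3 (adjusted p 0.060 to 0.16) and in the fit of all 18 libraries (0.099). Whole-gene reads do not show which exons they come from, and 2 small RNA genes, Gm26109 and Gm22200, lie inside Hspa9. All 8 CD8 T cell markers were read in every group, with summed levels of 4188 to 6519 CPM (recovered reads scaled to the library total) per library. The naive groups also differed in sex-linked RNA: 4 Y-linked genes had no read in naive WT libraries, whereas Ddx3y reached 2771 to 3056 normalised reads in the naive cKO-labelled ones, which also held Xist at 4109 to 4627 against 14705.5 to 17632 in WT. In naive cells the genotype and the sex of the donors therefore cannot be told apart. The effector and memory tables list none of the 4 Y-linked genes. Xist stood there at 12387.5 to 12848 normalised reads in cKO-labelled effector and 10152 to 17168 in cKO-labelled memory libraries. The naive cKO-labelled libraries thus do not share all their donors with the cultured cKO-labelled ones. Ratios and contrasts between naive and cultured cKO-labelled cells also carry this difference in donors. Library totals ran from 14771251 to 18049774 reads.

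Among WT cells, the step from naive to effector raised 9 of the 10 factors and lowered Ikzf2. Of all 14652 genes tested with edgeR, 35.3% were higher and 34.8% lower in WT effector than in WT naive cells at an adjusted p under 0.05, so large change was common. The 4 largest rises belonged to Zeb2, Bhlhe40, Tbx21 and Prdm1, and the median log2 fold change of the 10 was 3.05 against -0.01 over all genes. In memory against naive cells all 10 were higher (21.3% of all genes were higher and 17.9% lower), with a median of 2.31 against 0.00. In memory against effector cells Eomes and Ikzf2 were higher, 6 factors were lower, and Irf4 and Irf8 were not called (32.8% of all genes were higher and 32.2% lower).

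Per kilobase of exon, which allows genes to be compared, Bhlhe40 was the most abundant of the 10 in WT effector cells at 323 ± 11.8 CPM per kb (SD, n = 3), followed by Id2 at 165 ± 2.72 and Tbx21 at 152 ± 13.9, whose libraries overlapped. Batf stood at 28.1 ± 1.17 CPM per kb in those cells, and Zeb2 (23.1 ± 0.515), Irf4 (22.9 ± 1.02), Eomes (20.6 ± 1.86) and Prdm1 (20.2 ± 0.451) followed as neighbours in the order that overlapped. In WT naive cells Id2 led at 58.1 ± 5.63 CPM per kb, before Batf at 16.0 ± 0.808 and Eomes at 9.10 ± 0.835, and no library of these 3 genes overlapped another's. In WT memory cells Id2 led again at 69.3 ± 4.64 CPM per kb, then Eomes at 30.0 ± 2.30. Irf4 (25.6 ± 1.00) overlapped Batf (23.8 ± 3.31), which overlapped Bhlhe40 (20.5 ± 1.08). Prdm1 and Zeb2 closed the order in WT memory cells with 0.846 ± 0.0746 and 0.254 ± 0.0438, as they did in WT naive cells.

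**Figure D1:**
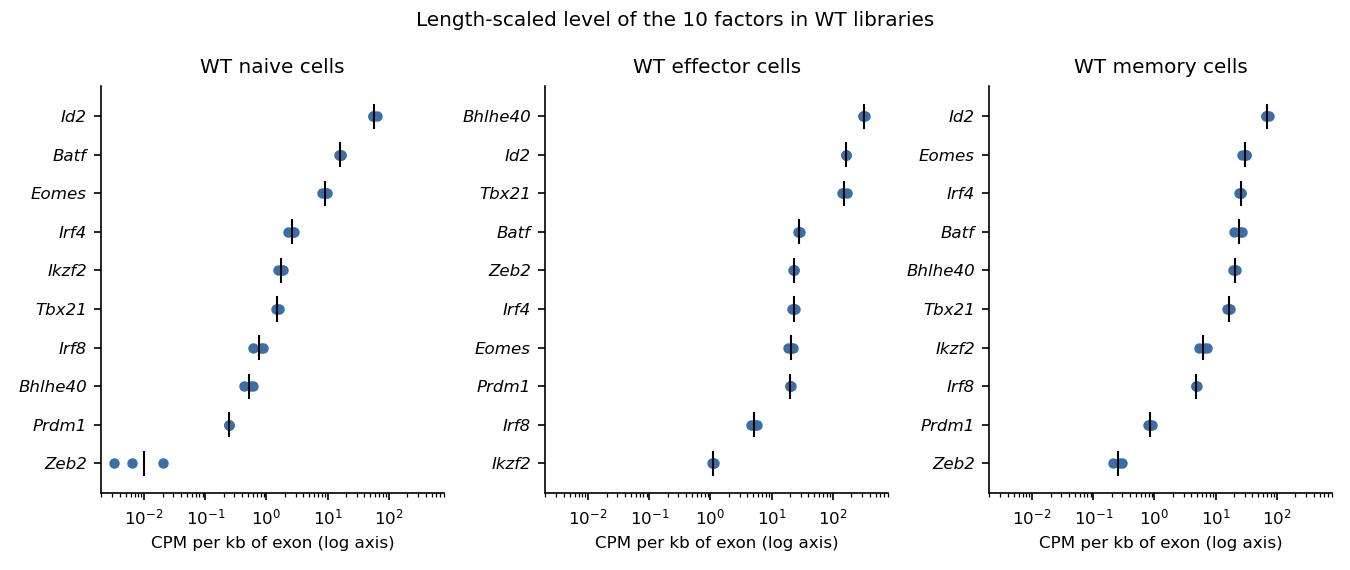
Level of the 10 factors in the 3 WT libraries of each subset, in CPM per kb of exon on a log axis, ordered by the mean (points are libraries, black bars are means). Bhlhe40, Id2 and Tbx21 stand at 152 or more in WT effector cells, whereas Prdm1 and Zeb2 are the lowest in WT naive and WT memory cells.

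By genotype, most of the factors were higher in cKO-labelled naive and memory cells, whereas in effector cells more of them were lower. In naive cells 9 factors passed the filter on low values; 5 rose in the cKO-labelled libraries (12.9% of all 13885 genes tested with limma were higher), 2 fell (11.9% were lower) and 2 were not called. Effector cells gave 3 higher factors (10.7% of 13815 genes were higher), 6 lower (9.37% were lower) and Tbx21 not called. Memory cells gave 7 higher (12.1% of 14622 genes), 1 lower, Batf (7.00% of genes), and 2 not called. The median log2 change of the members tested was 0.98 in naive cells, -0.17 in effector cells and 0.81 in memory cells, against -0.01, -0.01 and -0.02 over all genes. Irf8, Bhlhe40 and Ikzf2 were higher and Batf lower in cKO-labelled cells of each subset.

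**Figure D2:**
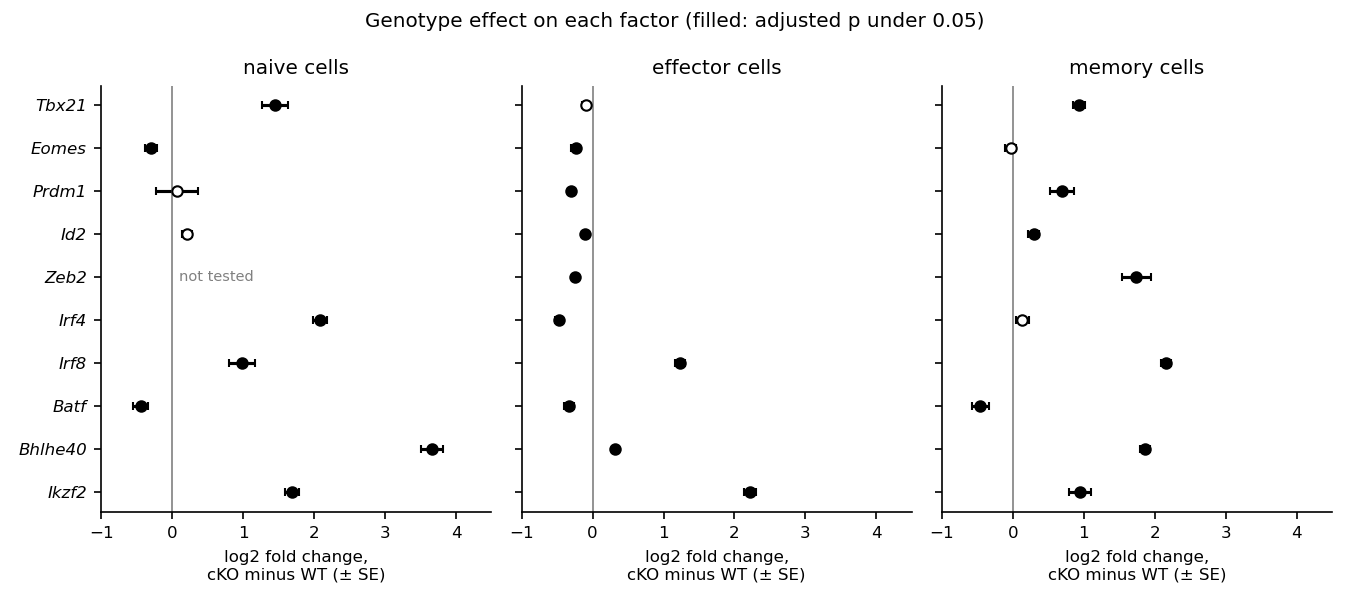
Log2 fold change of each factor, cKO-labelled minus WT, in naive, effector and memory cells (points, with bars of ± SE from limma; filled points have an adjusted p under 0.05). Irf8, Bhlhe40 and Ikzf2 lie to the right of 0 in the 3 panels and Batf to the left; Zeb2 did not pass the filter in naive cells.

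Scaling matters for the smaller of these values. Scaling to library totals in place of the authors' size factors, an alternative chosen after the data were seen, raised the log2 changes of all genes: the median change with the size factors minus that with library totals was -0.12 in naive and -0.07 in memory cells. The share of higher genes among the calls went from 52.0% to 77.9% in naive and from 63.3% to 78.0% in memory cells. With it Id2 and Zeb2 joined the higher members of naive cells, giving 7 higher, and Eomes dropped out of the lower ones, giving 1 lower. The counts of members in effector and memory cells were the same as with the size factors. In the fit of all 18 libraries together, the lower factors in effector cells came to 2 instead of 6.

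RNA of other cell types moved with the label. Summed over 6 markers each, WT memory libraries held between 21.9 and 23.8 CPM of myeloid markers and cKO-labelled ones between 167 and 219. Dendritic cell markers stood between 42.0 and 47.9 CPM in WT memory libraries against 189 to 191, and B cell markers between 87.4 and 98.6 against 135 to 151. Of those markers 6, 6 and 4 were called higher, in that order. In naive cells the same sums were 4.36 to 4.96 CPM against 6.40 to 7.53 for myeloid markers (2 tested, none called), 0.657 to 1.63 against 2.60 to 3.49 for dendritic cell markers (2 tested, 1 higher), with Xcr1, Siglech and Clec9a at 0 in WT, and 22.0 to 22.7 against a lower 16.9 to 18.7 for B cell markers (4 tested, 2 higher and 1 lower). In effector cells they were 98.6 to 109.7 against 111 to 118 for myeloid (3 of 6 higher, 1 lower), 698 to 715 against 804 to 826 for dendritic cell (6 of 6 higher) and 32.1 to 34.5 against 38.3 to 41.5 for B cell markers (1 of 6 higher). Most of that dendritic cell sum was Itgax, at mean CPM of 701 in WT and 796 in cKO-labelled libraries. The other dendritic cell markers had means of 0.614 to 1.20 CPM against 2.06 to 5.40. Itgam was the largest part of the myeloid sum, at 70.8 against 53.3 CPM, while the other myeloid markers had higher means in cKO-labelled libraries. From WT naive to WT effector cells Itgax and Itgam rose by 10.59 and 6.90 on the log2 scale. The NK cell list held 4 genes, Ncr1, Klrb1c, Gata2 and Cma1. Whether the reads of Gata2 and Cma1 come from NK cells was not tested. The list summed to 3.25 to 4.26 CPM in WT memory libraries against 14.9 to 17.4 (3 tested, 3 higher). In memory cells the mean of Klrb1c went from 1.85 to 11.2 CPM and that of Ncr1 from 0.394 to 1.498. The list summed to 33.3 to 37.4 against a lower 23.5 to 27.8 in effector cells (2 of 4 higher, 1 lower). In naive cells it summed to 0.839 to 1.26 against 1.39 to 2.69 (1 tested, not called). The lower effector sum came from Klrb1c, with means of 30.7 against 15.5 CPM. Ncr1 went from 1.24 to 4.70 there, and the means of Gata2 and Cma1 were also higher in cKO-labelled libraries. Erythroid markers summed to 12.3 to 14.3 CPM against 87.9 to 93.1 in effector cells (6 of 6 higher) and to 18.8 to 28.4 against 48.7 to 65.9 in memory cells (4 of 6 higher), and none passed the filter in naive cells. The 4 gamma-delta T cell markers summed to between 8.84 and 10.6 CPM in WT against 44.7 to 51.9 in naive cells, 7.78 and 9.12 against 54.0 to 57.9 in effector cells, and 13.6 and 15.0 against 92.8 to 121 in memory cells. Of the 8 CD8 T cell markers 7 were called lower in naive cells, 2 lower and 1, Trac, higher in effector cells, and 3 lower in memory cells. The CD8 coreceptor gene Cd8b1, with the largest fall among them in effector and memory cells, went from a mean of 1087 to 859 CPM in naive cells, from 1297 to 792 in effector cells and from 918 to 543 in memory cells, while Trac went from 527 to 580 in effector cells. In bulk RNA, more cells of a type and more RNA per cell cannot be told apart. The part of these RNAs in the results below was not tested, except where a value is given.

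**Figure D3:**
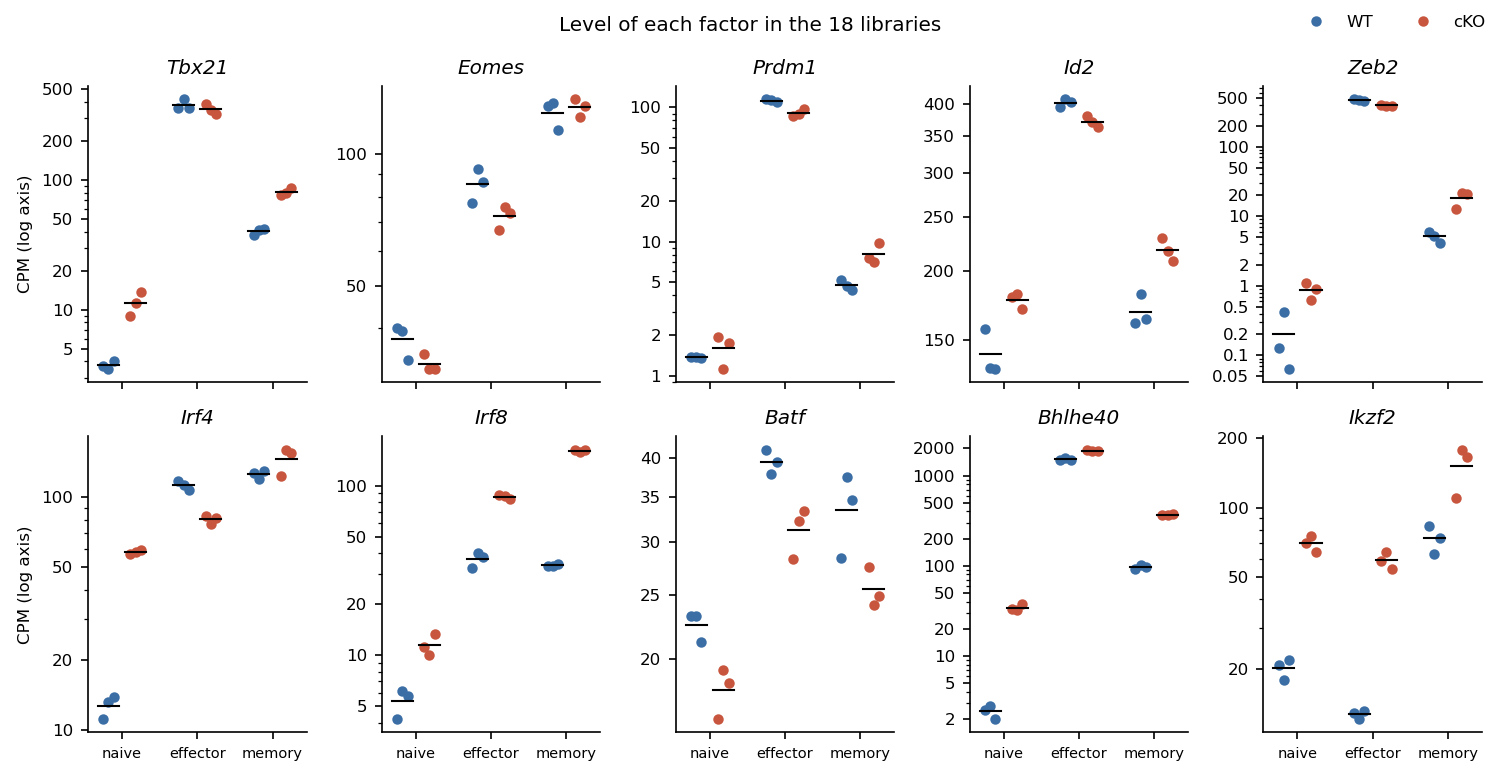
CPM of each factor in each of the 18 libraries on a log axis, by subset (blue, WT; red, cKO-labelled; black bars, means). The tallest steps between WT subsets are those of Zeb2, Bhlhe40, Tbx21 and Prdm1 into effector cells, and the genotypes of memory cells stand farthest apart for Irf8.

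Tbx21 encodes T-bet, the T-box factor that directs cytotoxic and interferon-gamma expression (ENSMUSG00000001444, GRCm39 chromosome 11, 96988897 to 97006157, minus strand). Its mean level in WT cells was 3.74 ± 0.242 CPM in naive cells, 379 ± 34.5 in effector cells and 40.5 ± 2.27 in memory cells, a 108-fold fitted rise from naive to effector cells (log2 6.75, edgeR adjusted p = 1.6e-21). In naive cells, normalised reads were 62.2, 59.5 and 67.6 in WT replicates 1, 2 and 3 and 140.3, 175 and 214 in cKO-labelled replicates 1, 2 and 3, and the groups did not overlap. The log2 fold change was 1.45 (SE 0.18, limma adjusted p = 1.4e-04), a 2.73-fold rise. Memory cells showed the same direction, with 625, 697 and 696 normalised reads in WT and 1217, 1257 and 1382 in cKO-labelled libraries. All 3 cKO-labelled memory libraries were above all WT ones (log2 0.93, SE 0.08, adjusted p = 8.9e-06). Effector cells overlapped, at 5707, 6683 and 5757 against 6227, 5556 and 5222 (log2 -0.09, SE 0.06, adjusted p = 0.30), where the fall was called only without cKO replicate 1 (log2 -0.16, adjusted p = 0.045). Tbx21 thus differed between subsets in its response: the genotype effect in effector minus that in naive cells was -1.54 (adjusted p = 1.4e-07), memory minus effector 1.03 (1.5e-04), and memory minus naive -0.52 (0.026). The last call was lost on leaving out any 1 of 6 libraries (naive WT 2, naive cKO 2 and 3, memory WT 2 and 3, and memory cKO 1), with adjusted p from 0.051 to 0.067.

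Eomes encodes the second T-box factor, shared by effector and memory cells (ENSMUSG00000032446, chromosome 9, 118307280 to 118315200, plus strand). In WT it was highest in memory cells, with 37.8 ± 3.47 CPM in naive cells, 85.5 ± 7.72 in effector cells and 125 ± 9.54 in memory cells, and memory exceeded effector by 0.50 on the log2 scale (edgeR adjusted p = 2.1e-05). Genotype differences were small. Naive cells held 674, 667 and 571 normalised reads in WT and 543, 503 and 503 in cKO-labelled libraries, without overlap (log2 -0.30, SE 0.09, adjusted p = 0.032). The naive call was lost on scaling to library totals (adjusted p = 0.16) and on leaving out any 1 of 5 libraries, WT replicates 1 and 2 and each cKO replicate, with adjusted p from 0.056 to 0.12. In effector cells the values were 1239, 1481 and 1377 against 1077, 1218 and 1178, with the lowest WT library just above the highest cKO-labelled one (log2 -0.24, SE 0.07, adjusted p = 0.015). That call was lost without WT replicate 2 (0.076) or 3 (0.060) or cKO replicate 1 (0.065), and in the fit of all 18 libraries (limma adjusted p = 0.075). Memory cells overlapped, with 2124, 2213 and 1875 against 2106, 1921 and 2034 (log2 -0.03, SE 0.08, adjusted p = 0.82). The antisense gene Gm33460 overlaps Eomes and had at most 46.7 mean reads, and since no strand setting is stated for the counting, reads of the 2 genes cannot be told apart where they overlap.

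The balance of the T-box factors was taken as the log2 ratio of Tbx21 to Eomes in CPM per kb. It was -2.70, -2.75 and -2.34 in naive WT libraries and -1.21, -0.782 and -0.494 in naive cKO-labelled ones, so Eomes exceeded Tbx21 in every naive library and by less in the cKO-labelled. In memory cells the ratio went from -1.02, -0.927 and -0.69 in WT to -0.0512, 0.128 and 0.182, where Tbx21 passed Eomes in 2 of 3 cKO-labelled libraries. Effector libraries lay between 2.80 and 3.27 in both genotypes. The exact two-sided permutation p was 0.1 in naive and memory cells, the smallest that 3 libraries against 3 can give, and 0.5 in effector cells. These 3 ratios, Tbx21 to Eomes and the Id2 to Id3 and Zeb2 to Zeb1 ratios below, were chosen after the data were seen, and the adjusted p over their 9 comparisons was 0.15 wherever the raw p was 0.1.

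**Figure D4:**
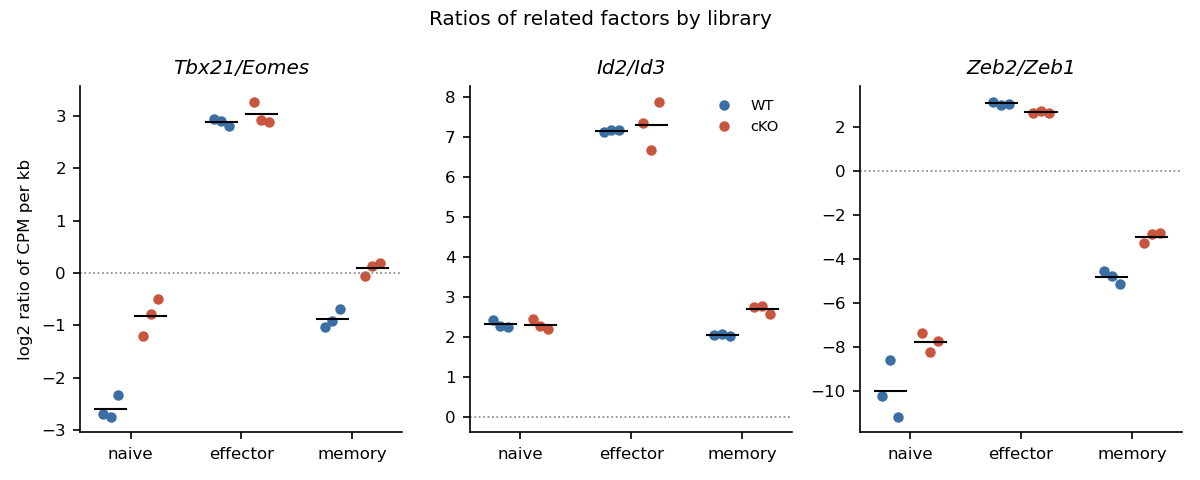
Log2 ratio of CPM per kb of Tbx21 to Eomes, Id2 to Id3 and Zeb2 to Zeb1 in each library, by subset (blue, WT; red, cKO-labelled; black bars, means). The mean Tbx21 to Eomes ratio goes from -2.59 to -0.83 in naive and from -0.88 to 0.09 in memory cells, while the effector libraries of both genotypes overlap.

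Zeb2, the zinc-finger repressor that acts with T-bet in terminal effector cells (ENSMUSG00000026872, chromosome 2, 44873644 to 45007407, minus strand), had the largest fold change of the 10 between WT subsets. WT libraries held 0.126, 0.418 and 0.0646 CPM in naive, 478, 462 and 458 in effector and 5.96, 5.24 and 4.20 in memory cells. The rise from WT naive to WT effector cells was 11.17 on the log2 scale (edgeR adjusted p = 9.4e-22), and it rests on 10 reads in all of the 3 naive WT libraries. Memory cells differed by genotype: 98.2, 88.3 and 69.2 normalised reads in WT stood below 203, 341 and 329 in cKO-labelled libraries, and replicate 1 was the lowest of the latter (log2 1.74, SE 0.21, adjusted p = 9.1e-05). Effector cells went the other way, from 7654, 7383 and 7309 to 6477, 6196 and 6199.9, without overlap (log2 -0.24, SE 0.04, adjusted p = 6.3e-05). In a fit of all 18 libraries, whose spread for Zeb2 includes the sparse naive counts, the effector call was lost (adjusted p = 0.71). Naive reads, 2, 7 and 1 in WT against 20, 10 and 14 in cKO-labelled libraries, did not pass the filter. Without the filter the log2 change was 1.94 (adjusted p = 0.038), while the authors' deposited table gives an adjusted p of 0.083. The genotype effect was higher in memory than in effector cells by 1.98 (adjusted p = 0.0048) and effector minus naive was -2.18. Zeb2 entered the second of these contrasts only through its effector and memory libraries, so it is given as a value that rests on the few naive reads; it was -1.44 with a pseudocount of 5. NK cells also hold Zeb2, Tbx21, Eomes, Prdm1 and Id2. Marker sums of myeloid and dendritic cells, given above with that of the NK cell list, were also higher in cKO-labelled memory libraries. The part of NK, myeloid or dendritic cell RNA in the memory values of Zeb2 and these other genes was not tested. Zeb2os, antisense to Zeb2, had at most 22.3 mean reads.

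Set against its paralogue Zeb1, Zeb2 also moved with the subset. The log2 ratio of Zeb2 to Zeb1 in CPM per kb was -9.99 ± 1.31 in WT naive, 3.06 ± 0.0666 in WT effector and -4.84 ± 0.302 in WT memory cells. In cKO-labelled cells the means were -7.77 ± 0.434, 2.66 ± 0.0569 and -2.99 ± 0.241, and the exact permutation p was 0.1 in each subset. Zeb1 itself was not called in any subset.

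Prdm1 encodes BLIMP-1, a zinc-finger repressor that promotes terminal differentiation (ENSMUSG00000038151, chromosome 10, 44313173 to 44404497, minus strand). In WT cells it was high in the effector subset, with 1.37 ± 0.0136 CPM in naive cells, 113 ± 2.51 in effector cells and 4.72 ± 0.416 in memory cells. The fitted rise into effector cells was 86.9-fold (log2 6.44, edgeR adjusted p = 1.5e-20). Effector cells held 1838, 1806 and 1751 normalised reads in WT and 1389, 1427 and 1567 in cKO-labelled libraries, without overlap (log2 -0.30, SE 0.05, adjusted p = 3.6e-04), a call lost in the fit of all 18 libraries (0.28). Memory values were 84.8, 79.2 and 71.2 in WT against 119.7, 111 and 154, also without overlap but in the opposite direction (log2 0.69, SE 0.17, adjusted p = 0.015). The memory call was lost without WT replicate 3 (0.066) or cKO replicate 3 (0.079), the lowest and the highest library. In naive cells the groups overlapped at 22.9 to 23.2 against 17.5 to 30.1 (log2 0.07, SE 0.30, adjusted p = 0.89). The difference between the memory and the effector effect was 0.99 (adjusted p = 0.0065).

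Id2 encodes an inhibitor that binds E proteins (ENSMUSG00000020644, chromosome 12, 25143798 to 25147139, minus strand), and it was the most abundant member per kilobase in WT naive and memory cells. WT means were 142 ± 13.7 CPM in naive cells, 401 ± 6.62 in effector cells and 169 ± 11.3 in memory cells, with effector above naive by 1.60 on the log2 scale (edgeR adjusted p = 5.7e-14). Memory cells held 2652, 3065 and 2705 normalised reads in WT and 3609.9, 3418 and 3291 in cKO-labelled libraries, which did not overlap (log2 0.29, SE 0.08, adjusted p = 0.020). Effector cells held 6311, 6500.1 and 6432 against 6079.8, 5945 and 5829, a fall of 0.11 (SE 0.03, adjusted p = 0.035). Naive cells held 2641, 2263 and 2252 against 2785, 2816 and 2651 (log2 0.21, SE 0.07, adjusted p = 0.059). The calls turned on single libraries: the memory call was lost without WT replicate 1 (0.11) or 3 (0.11), and the effector call on leaving out any 1 of WT replicates 1, 2 and 3 and cKO replicates 2 and 3 (0.060 to 0.13). The effector call was also lost without the filter on low values (limma adjusted p = 0.057) and in the fit of all 18 libraries (0.37). The naive comparison passed the threshold without WT replicate 1 (0.021), with TMM scaling (0.046), on scaling to library totals (0.0076) and in the fit of all 18 libraries (0.023). Effector and naive effects differed by -0.32 (adjusted p = 0.020, lost at 0.050 to 0.057 without naive WT replicate 3, naive cKO replicate 2 or effector cKO replicate 3), and memory and effector effects by 0.40 (0.0078).

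Id3, the paralogue that marks less differentiated cells, was lower in cKO-labelled memory cells (log2 -0.35, adjusted p = 0.020). The log2 ratio of Id2 to Id3 in CPM per kb was 2.04 ± 0.0155 in WT memory and 2.69 ± 0.103 in cKO-labelled memory cells (exact permutation p = 0.1), against 2.31 ± 0.0945 and 2.30 ± 0.12 in naive cells (p = 1). Of the 3 E proteins that ID2 binds, Tcf12 rose in naive (0.32) and effector cells (0.28), and Tcf4 in effector (0.58) and memory cells (2.53). Without any 1 of effector WT replicates 1 and 3 and cKO replicates 1 and 3, 1 E protein was called higher in effector cells. Tcf4 went from 82.6 ± 3.35 to 492 ± 116 normalised reads in memory cells. It is also a factor of plasmacytoid dendritic cells, whose marker Siglech went from 0.993 to 41.1 CPM in the same libraries, and the part of such cells was not tested.

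Irf4, the interferon regulatory factor whose level follows T cell receptor signal strength (ENSMUSG00000021356, chromosome 13, 30933209 to 30950959, plus strand), had its largest genotype difference in naive cells. Naive cells held 187, 222 and 233 normalised reads in WT and 886, 899 and 921 in cKO-labelled libraries, all of the latter above all of the former (log2 2.08, SE 0.10, adjusted p = 8.1e-08). Its mean in naive cKO-labelled cells, 58.1 ± 1.14 CPM, lay between WT naive cells at 12.7 ± 1.40 and WT effector cells at 112 ± 4.98. In effector cells it fell, from 1876, 1796 and 1709.7 to 1325, 1235 and 1305 normalised reads (log2 -0.48, SE 0.05, adjusted p = 1.9e-06), and the groups did not overlap. Memory values were 2089, 2024 and 2138 in WT and 1949, 2516 and 2436 in cKO-labelled libraries, which spread to either side of WT (log2 0.13, SE 0.09, adjusted p = 0.37). Without cKO replicate 1, the low one, the rise in memory cells was called (log2 0.25, adjusted p = 0.012). The difference of the genotype effect was -2.55 for effector minus naive (adjusted p = 5.5e-13), -1.94 for memory minus naive (2.0e-10) and 0.61 for memory minus effector cells (0.0022). The effector to naive ratio of mean CPM was 8.85 in WT and 1.38 in cKO-labelled cells.

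Batf, the AP-1 family partner of IRF4 (ENSMUSG00000034266, chromosome 12, 85733443 to 85755861, plus strand), was lower in cKO-labelled libraries of each subset. In naive cells it went from 389, 393 and 359 normalised reads in WT to 253, 299 and 286 (log2 -0.44, SE 0.10, adjusted p = 0.0088). Effector values were 659, 605 and 629 against 454, 518 and 534 (log2 -0.33, SE 0.08, adjusted p = 0.0037). Memory values were 468, 631 and 572 against 434, 379.6 and 393 (log2 -0.46, SE 0.12, adjusted p = 0.016). The groups did not overlap in any subset, although WT replicate 1 of memory cells came close to the cKO-labelled libraries. The memory call was lost without WT replicate 2 or 3 or cKO replicate 2 or 3 (adjusted p 0.056 to 0.076). No difference of the Batf effect between subsets was called: effector minus naive was 0.11 (SE 0.15, adjusted p = 0.66), memory minus naive -0.01 (SE 0.15, adjusted p = 0.96) and memory minus effector -0.13 (SE 0.15, adjusted p = 0.67). In WT cells its level moved little, from 22.6 ± 1.14 CPM in naive to 39.5 ± 1.65 in effector and 33.5 ± 4.65 in memory cells, and the difference between WT memory and effector cells (log2 -0.28, edgeR adjusted p = 0.016) was lost without effector WT replicate 1 (0.059) or memory WT replicate 1 (0.13).

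The partners with which BATF and IRF4 bind DNA were followed as a list of 14 genes. In naive cells 5 of the 11 tested rose and none fell, with a median of 0.24 (12.9% and 11.9% of all genes rose and fell); without cKO replicate 3, 1 fell. Fosb, an immediate early AP-1 gene, went from 119 ± 12.5 to 1259 ± 142 normalised reads (log2 3.39, SE 0.11, adjusted p = 4.7e-09), and Fosl2 and Fos rose by 1.58 and 1.57. In effector cells 6 of 13 rose and 4 fell (10.7% and 9.37% of all genes). There Fosb fell by 1.01, from 4863 ± 332 to 2419 ± 99.1, and Fos by 0.74, while Fosl2 rose by 0.75. In memory cells, where 12.1% and 7.00% of all genes rose and fell, 3 of 13 rose, namely Spi1 (2.70), Spib (1.55) and Fosl2 (0.47), and Jund fell (-0.35), a fall lost without WT replicate 1, WT replicate 2 or cKO replicate 2. Spi1 encodes PU.1 and Spib its relative, both known from myeloid, dendritic and B cells, whose marker sums are given above for the same libraries; their part in these 2 rises was not tested.

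Irf8, an interferon regulatory factor of dendritic, myeloid and B cells that activated CD8+ T cells also express (ENSMUSG00000041515, chromosome 8, 121463097 to 121483433, plus strand), rose in cKO-labelled libraries of each subset. Memory cells gave 551, 565 and 572 normalised reads in WT and 2561, 2474 and 2543 in cKO-labelled libraries, 2 tight groups far apart. The memory change was 2.16 on the log2 scale (SE 0.07, adjusted p = 3.3e-09), 4.48-fold, ranked 7 by p among all genes tested. In effector cells the values went from 521, 639 and 603 to 1402, 1399.9 and 1330.0, again without overlap (log2 1.23, SE 0.07, adjusted p = 2.8e-10). Naive cells held 70.6, 104 and 97.0 in WT and 174, 157 and 206 in cKO-labelled libraries (log2 0.98, SE 0.18, adjusted p = 0.0021). The effect was larger in memory than in naive cells by 1.18 (adjusted p = 2.1e-05) and than in effector cells by 0.93 (6.2e-04), while effector minus naive was 0.25 (SE 0.16, adjusted p = 0.32; 0.041 without naive WT replicate 1). In WT cells Irf8 stood at 5.37 ± 1.02 CPM in naive cells, 36.8 ± 3.84 in effector cells and 33.9 ± 0.692 in memory cells, and the last 2 were not told apart (log2 -0.17, edgeR adjusted p = 0.16).

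Cells that normally hold Irf8 are myeloid, dendritic and B cells, whose summed markers are given above; in naive cells the B cell sum was lower, and in effector cells the myeloid marker Itgam went from 70.8 to 53.3 CPM, the 1 of 6 called lower. The following were picked after their values were seen. Lyz2, a myeloid gene, went from a mean of 6.87 to 143 CPM in memory cells, Siglech from 0.993 to 41.1, Flt3 from 2.67 to 25.6 and Clec9a from 1.46 to 23.0, while Irf8 went from 33.9 to 160.1. In effector cells, where Irf8 went from 36.8 to 85.9 CPM, Lyz2 went from 9.80 to 28.1, Clec9a went from 0.614 to 5.40, Xcr1 from 0.806 to 3.96, Flt3 from 1.07 to 3.96 and Siglech from 1.20 to 2.64. In naive cells, where Irf8 went from 5.37 to 11.5 CPM, Lyz2 went from 0.331 to 0.68 and Flt3 from 0.043 to 0.453. Siglech, Clec9a and Xcr1 stood at 0 in naive WT libraries and at 0.206, 0.107 and 0.0578 CPM in the cKO-labelled ones. The part of these cells in the Irf8 rise was not tested in any subset. Of the other genes of the IRF and BATF families, Irf5 and Batf3, both known from dendritic or myeloid cells, rose in effector cells (0.67 and 2.46) and in memory cells (2.21 and 3.26). Batf3 reached 38.6 ± 8.56 normalised reads from 3.41 ± 2.32 in memory cells. Irf7 rose in naive cells (0.73) and fell slightly in effector cells (-0.18). Over the 21 genes listed as paralogues of the members, 3 of 13 tested rose and 2 fell in naive cells, 2 of 15 rose and 1 fell in effector cells, and 2 of 16 rose and 2 fell in memory cells. Those shares lie beside 12.9% and 11.9%, 10.7% and 9.37%, and 12.1% and 7.00% of all genes, and the counts are too small to tell from these. On leaving out 1 library these small counts moved to 3 or 4 up and 1 or 2 down, 1 or 2 up and 0 or 1 down, and 1 or 2 up and 1 to 3 down.

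Bhlhe40, a basic helix-loop-helix repressor induced by T cell stimulation (ENSMUSG00000030103, chromosome 6, 108637590 to 108643886, plus strand), showed the largest genotype change of the 10 in naive cells. Naive cKO-labelled libraries held 510.3, 496 and 580.1 normalised reads against 42.2, 47.4 and 33.8 in WT, with no overlap. The log2 change of 3.66 (SE 0.15, adjusted p = 2.6e-08), 12.7-fold, exceeded in size that of 99.6% of the genes tested. Memory cells went from 1506, 1711 and 1584 to 5805, 5711 and 5888 (log2 1.86, SE 0.07, adjusted p = 1.4e-08), with every cKO-labelled library above 3 times the highest WT one. Effector cells, in which the gene is most abundant, went from 23741, 25266 and 23732 to 30924, 29842 and 29928 (log2 0.32, SE 0.03, adjusted p = 9.0e-07), a 1.25-fold rise without overlap. The genotype effect thus differed between all subsets: effector minus naive was -3.34 (adjusted p = 4.2e-15), memory minus naive -1.80 (5.4e-10) and memory minus effector 1.54 (1.8e-08). In WT cells the means ran from 2.44 ± 0.407 CPM in naive to 1518 ± 55.7 in effector and 96.3 ± 5.09 in memory cells, and the ratio of effector to naive was 622 in WT and 55.4 in cKO-labelled cells. Ordered by CPM over the 6 groups, no 2 neighbouring groups overlapped for this gene. Cell cycle markers rose with Bhlhe40 in naive cells and fell in effector cells: the sum of 6 was 40.6 to 46.0 CPM in naive WT against 260.0 to 281 in naive cKO-labelled libraries, 2837 to 2978 against 2029 to 2118 in effector cells, and 287 to 305 against 385 to 447 in memory cells, with 6 of 6 higher, 6 of 6 lower and 4 of 6 higher. Their part in the Bhlhe40 result was not tested.

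Ikzf2 encodes Helios (ENSMUSG00000025997, chromosome 1, 69570373 to 69726404, minus strand) and was the member with the largest rise in effector cells. WT effector cells held 206, 193 and 209 normalised reads and cKO-labelled ones 939, 1033 and 873, without overlap (log2 2.22, SE 0.08, adjusted p = 6.5e-13). Naive cells went from 347, 302 and 367 to 1095, 1171 and 999 (log2 1.68, SE 0.10, adjusted p = 3.9e-07). Memory cells went from 1379.7, 1064 and 1220.1 to 1747, 2814 and 2627 (log2 0.95, SE 0.16, adjusted p = 0.0011), with cKO replicate 1 apart from the other two and nearest to WT. The effect was smaller in memory cells, with -1.27 for memory minus effector (adjusted p = 8.5e-05) and -0.73 for memory minus naive (0.0082). Effector minus naive was 0.53 (adjusted p = 0.046), a call lost with edgeR (0.062), on scaling to library totals (0.13) and on leaving out any 1 of 9 libraries, all but naive WT 2, naive cKO 2 and effector cKO 3 of the 12 (0.065 to 0.12). Ikzf2 was the only one of the 10 that was lower in WT effector than in WT naive cells (12.7 ± 0.538 against 20.1 ± 2.02 CPM, log2 -0.57, edgeR adjusted p = 1.5e-04), and it stood at 73.6 ± 10.3 CPM in WT memory cells. In naive cKO-labelled cells its level, 70.1 ± 5.60 CPM, overlapped that of WT memory cells.

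Helios is known from regulatory T cells and from unconventional T cells, so their markers stand beside it. Foxp3 went from 2.06 to 4.51 CPM in naive cells, from 0.842 to 3.06 in effector cells and, with overlapping libraries, from 2.23 to 2.95 in memory cells. The sum of the 4 CD4 and regulatory T cell markers was 4.52 to 5.87 CPM in WT against 14.1 to 17.2 in naive cells (3 of 4 higher), 63.3 to 64.8 against 62.9 to 65.8 in effector cells (1 higher) and 15.2 to 18.3 against 32.8 to 35.6 in memory cells (2 higher). Most of the effector sum was Zbtb7b, at mean CPM of 54.2 in WT and 52.0 in cKO-labelled libraries. In the same cells Cd4 went from 4.59 to 6.05 CPM and Cd40lg from 4.29 to 3.29. Trdc, the gamma-delta receptor constant gene, went from 7.85 to 26.3 CPM in naive cells, from 3.77 to 15.3 in effector cells and from 8.55 to 33.0 in memory cells. The part of such cells in the Ikzf2 rise was not tested. Among its Ikaros paralogues, Ikzf4 and Ikzf3 rose in naive cells (1.17 and 0.45), and in effector and memory cells no tested Ikaros paralogue was called. The lncRNA genes Gm28112, Gm29112 and Gm29114 overlap Ikzf2 and had at most 20.0 mean reads in any group.

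Between subsets, the genotype effect differed for 6 of the 10 members in effector against naive cells (18.5% of all 15694 genes tested), Zeb2 among them with the limit given above, for 5 in memory against naive cells (16.9%) and for 8 in memory against effector cells (8.71%). In the last of these, 7 effects were higher in memory cells and that of Ikzf2 was lower. Each of these counts shares libraries with the others. Scaled to library totals, the share of higher differences among the genes called went from 47.6% to 24.8% in effector against naive cells and from 54.5% to 73.1% in memory against effector cells. The memory minus effector calls were the same 8 without any of the 12 libraries left out in turn.

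Effector genes known as targets of T-bet, EOMES or ZEB2 formed a companion list of 19. Among WT cells all 19 were higher in effector than in naive cells (35.3% of all genes were higher). All 19 were lower in memory than in effector cells (32.2% of all genes were lower). By genotype, in memory cells 13 rose and 1, Prf1, fell (-0.42), with a median of 1.03 against -0.02 over all genes, of which 12.1% rose and 7.00% fell. Fasl, the death ligand, went from 153 ± 10.1 to 839 ± 29.2 normalised reads (log2 2.44, adjusted p = 1.6e-08), and the cytokine receptor genes Il12rb2 and Il2rb rose by 1.86 and 1.20. Granzyme B (Gzmb) rose by 1.03 and Ifng by 1.31. In naive cells 9 of 16 tested rose and 5 fell (12.9% and 11.9% of all genes), with a median of 1.00: Ccl5 rose by 2.88, Gzmb by 2.43 and Ifng by 2.80, whereas Prf1, the perforin gene, fell from 1125 ± 66.7 to 434 ± 24.7 (log2 -1.37) and Il18r1 by 0.93. The 9 rises dropped to 5 without naive cKO replicate 1, as they did without replicate 2 or 3. Effector cells showed smaller changes in this list, 7 up and 3 down of 19 (10.7% and 9.37% of all genes), with a median of 0.08. There Il18r1, Fasl and Il2rb rose by 0.51, 0.34 and 0.28.

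Genes known to be repressed by BLIMP-1, T-bet or ZEB2, or to oppose them, formed a list of 16, of which 15 were tested. In memory cells 10 fell and 2 rose (7.00% and 12.1% of all genes), with a median of -0.35. Cxcr5 fell from 694 ± 48.0 to 283 ± 33.3 normalised reads (log2 -1.30), Myb by 1.14 and Lef1, a factor of naive and memory cells, by 0.60, while Bcl6 and Myc rose by 0.37 and 0.38. In naive cells 5 rose and 5 fell (12.9% and 11.9% of all genes): Il7r fell by 0.48, while Myc and Bach2 rose by 0.61 and 0.38. The 5 falls became 3 without naive WT replicate 3, cKO replicate 2 or cKO replicate 3. In effector cells 5 rose and 4 fell (10.7% and 9.37% of all genes), and Il7r and Satb1 rose there by 0.56 and 0.38.

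Genes whose 6 group means, on the log2(CPM + 1) scale and centred on their own mean, lay nearest to each member were sought among 10055 genes with a mean of at least 5 CPM. Tbx21 was nearest to Slamf7 (mean absolute distance 0.17), Heatr9 (0.20) and Dapk2 (0.22), and Prdm1 to Itgam (0.08), Gm36981 (0.16) and Ncald (0.21). For Zeb2 the nearest were Gzmb (0.38), S1pr5 (0.47) and Cx3cr1 (0.52), 3 genes of the targets list. Those of Bhlhe40 were Osbpl3 (0.34), Ccl4 (0.47) and Ccl5 (0.47), of Irf4 Dusp4 (0.20), Trib1 (0.25) and Rgs2 (0.26), and of Irf8 Serpina3g (0.16), Irf5 (0.22) and Pdgfb (0.25). Eomes lay nearest to Rnf43 (0.14), Zfp36 (0.19) and Cd28 (0.20), Batf to Ahcy (0.11), Ost4 (0.11) and Ubl5 (0.11), Id2 to Lancl2 (0.05), Gsr (0.05) and Ksr1 (0.06), and Ikzf2 to Kit (0.24), Ahr (0.33) and Marcks (0.33). The distances compare with ranges of the members' own group means from 1.09 for Batf to 9.11 for Bhlhe40 on the same scale.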

How the data were processed

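Poly(A)-selected RNA was sequenced from 18 libraries. Per the submitters' processing notes, the authors worked on build GRCm39 with DESeq2 1.42.0, featureCounts 2.0.6, HISAT2 2.2.1 and fastp; the roles and settings of these tools, strand included, are not given in the sources used here. The deposited tables, 1 for each subset, hold a signal, read counts divided by a size factor, and give the authors' log2 fold changes (WT over cKO) with p-values and adjusted p-values. Whole reads were recovered from 100% of 436806 deposited values within 1e-05 reads, and CPM were computed from them with library totals.

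Groups came from the sample titles. Genotype effects (cKO-labelled minus WT) were fitted within each subset with limma 3.58.1 (intensity trend) on log2(normalised reads + 1), keeping a gene when 3 or more libraries had 10 or more normalised reads. Fold changes on this scale understate the change of low genes. Differences between subsets were interaction contrasts over all 18 libraries for genes listed in all 3 tables. WT subsets were compared on recovered reads with edgeR 4.0.16 (quasi-likelihood test, TMM, filterByExpr) over the 9 WT libraries. P-values were adjusted with Benjamini-Hochberg over all genes tested and called under 0.05 in R 4.3.3. The scripts were tested on simulated data.

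The members, the 5 companion lists and the tests were chosen with earlier results of these data known. The rule for naming took all members, Hspa9, up to 3 called genes with the smallest adjusted p from each list and comparison, and the 3 nearest genes of each member; 2 genes that the rule takes are not reported here. Id3, Zeb1, Jund, Gzmb, Ifng, Bcl6, Ikaros paralogues and the memory values of Prf1 and Myc were named after their values were seen, as were the markers singled out from their lists. Alternatives changed the pseudocount, filter, scaling, tool, replicate block and libraries; scaling to library totals was added after the data were seen.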

Additional observations from a re-analysis of the deposited data

Results flagged for a closer look

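These genotype effects (cKO-labelled minus WT, log2 scale) differed between subsets by the interaction test at an adjusted p under 0.05, which 18.5%, 16.9% and 8.71% of all genes passed in the 3 comparisons. For effector minus naive cells the difference was -3.34 for Bhlhe40, -2.55 for Irf4, -2.18 for Zeb2, -1.54 for Tbx21, -0.32 for Id2 and 0.53 for Ikzf2. The value of Zeb2 rests on 1 to 7 reads in each naive WT library, which did not pass the filter within naive cells. Within effector cells Tbx21 had no called change, and Irf4, Zeb2 and Id2 fell.

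For memory minus naive cells the difference was -1.94 for Irf4, -1.80 for Bhlhe40, -0.73 for Ikzf2, -0.52 for Tbx21 and 1.18 for Irf8. For memory minus effector cells it was 1.98 for Zeb2, 1.54 for Bhlhe40, 1.03 for Tbx21, 0.99 for Prdm1, 0.93 for Irf8, 0.61 for Irf4, 0.40 for Id2 and -1.27 for Ikzf2. Contrasts with naive cells carry the difference in sex-linked RNA between the naive groups. Every contrast also carries RNA of other cell types, which moved with the label in each subset as given above. Myeloid and dendritic cell RNA was part of it in memory cells, and dendritic cell and erythroid RNA in effector cells. Gamma-delta T cell markers were higher in each subset. None of these parts was tested.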

How the results depend on the processing

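Of 1363 values of members under alternatives, 1278 kept their direction and side of the threshold, 54 lost the call, 13 gained one and 18 changed sign; in memory against effector effects 180 of 180 kept both. Leaving out 1 library moved the genes called from 3454 to 2127 to 3301 in naive, from 2779 to 2082 to 2525 in effector and from 2793 to 1830 to 3049 in memory cells; for the differences, from 2902 to 2387 to 2823 (effector minus naive), from 2652 to 1934 to 2945 (memory minus naive) and from 1367 to 1002 to 1500 (memory minus effector). One fit of all 18 libraries called 1519 genes in effector cells. On recovered reads edgeR called 3425, 2822 and 2854 genes in naive, effector and memory cells, and DESeq2 3326, 2414 and 2735. The share of higher differences in effector against naive cells went from 47.6% to 40.9% with edgeR.

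Sign changes were seen in values that passed no threshold. Left-out libraries gave Prdm1 in naive cells -0.080 to 0.30, Eomes in memory cells -0.10 to 0.017, Eomes in effector minus naive -0.0042 to 0.14, Batf in memory minus naive -0.14 to 0.081 and Zeb2 in memory minus naive -0.75 to 0.22. Zeb2 in that contrast was 0.50 with a pseudocount of 5. Scaling to library totals gave Eomes 0.041 in memory cells and -0.060 in effector minus naive, and Batf -0.012 in effector minus naive. The causes were not tested.

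No pairing by replicate number was seen: same-numbered WT and cKO-labelled libraries correlated at -0.14 to 0.067 in their deviations from the group means. With 3 libraries per group these values cannot exclude a pairing. With the replicate block, memory minus effector calls came to 877, and those in naive, effector and memory cells to 2469, 2687 and 2226. Eomes in naive cells (adjusted p = 0.064), Id2 in effector (0.060) and memory cells (0.056), Id2 (0.055) and Ikzf2 (0.11) in effector minus naive lost their calls under the block. Depth limits Zeb2 in naive cells, at 1 to 7 reads per WT library.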
